A study of Homo sapiens with 12 samples.

Results

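LAMP3, NPHS1, CALCA, SH3BGR and DMGDH are 5 genes, of 18668 listed, with large rises over vehicle in 22Rv1 cells given a degrader; among genes with at least 5 CPM in the degrader group and no overlap between replicates theirs were the 5 largest rises. They were chosen by their read counts in the degrader and vehicle libraries, for rises from low vehicle levels, so every comparison of the degrader with another group is a description of the choice and carries no test here. 22Rv1 is an established line of prostate cancer cells that grow without androgen, so the groups stand for 1 line. Cells without engineered changes received vehicle, enzalutamide (a drug used in the clinic), an autophagy-activating ligand or the degrader for 24 h. The labels name the degrader as targeting the androgen receptor. Each of the 4 groups held 3 biologically independent libraries. The doses are not given in the sources used here. Polyadenylated RNA was sequenced from a stranded library kit, and the text gives counted reads and, for levels, CPM, the reads of a gene scaled by edgeR to a library of fixed size.

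The 5 genes come from unrelated families. LAMP3 encodes a lysosomal membrane glycoprotein best known from mature dendritic cells, and its transcript is known to be induced when the kinase PERK, through the transcription factor ATF4, answers stress in the endoplasmic reticulum. NPHS1 encodes nephrin, the adhesion protein of the slit diaphragm between podocyte foot processes in the kidney. CALCA encodes calcitonin and, by alternative splicing, the neuropeptide CGRP, and is known from thyroid C cells and sensory neurons. SH3BGR encodes a small acidic protein of heart and skeletal muscle with a thioredoxin-like fold. DMGDH encodes dimethylglycine dehydrogenase, a mitochondrial flavoprotein that turns dimethylglycine into sarcosine during choline breakdown and is most abundant in liver and kidney.

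Library totals were 55.5 to 77.2 M reads, and every listed gene had at least 1 read in every library. Between replicates of a group, counts differed by more than sampling noise, with a chi-square per degree of freedom of 5.40 to 22.0. Of 13 luminal prostate markers all 13 were in the table, as the labelled cell type has them. In bulk RNA, fewer cells that express a gene and less RNA per cell cannot be told apart.

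Of the 5 genes, 3 have an entry in the RefSeq promoter table (GRCh38.p14, 250 bases before to 50 after the start). The stretch from 200 to 11 bases before the start is shown for CALCA, which holds matches to 3 of the motifs searched there, and for NPHS1, which holds none in that stretch, as a contrast. CALCA lies at chr11:14972362-14972551 and NPHS1 at chr19:35852515-35852704, both on the minus strand and printed 5′ to 3′ along the gene. Capitals mark motif matches.
CALCA: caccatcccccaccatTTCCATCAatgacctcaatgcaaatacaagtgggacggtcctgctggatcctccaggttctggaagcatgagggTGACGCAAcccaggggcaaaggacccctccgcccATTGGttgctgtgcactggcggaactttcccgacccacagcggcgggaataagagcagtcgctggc
NPHS1: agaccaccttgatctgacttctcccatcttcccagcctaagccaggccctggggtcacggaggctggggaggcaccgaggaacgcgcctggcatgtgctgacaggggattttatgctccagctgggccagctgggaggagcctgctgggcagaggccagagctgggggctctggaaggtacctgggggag
In CALCA the capitals mark, from the left, TTCCATCA at -184 to -177, TGACGCAA at -110 to -103 and ATTGG at -76 to -72, counted from the start site. TTCCATCA is the reverse-strand match of TGATGNAA, a C/EBP-ATF response element, which 3.62% of 35116 promoters of the same length hold on either strand. TGACGCAA, a CRE-like site of ATF and C/EBP factors, is held by 0.513% of them, and CCAAT, matched here on the reverse strand as ATTGG, by 34.6%. The NPHS1 stretch holds none of the 9 motifs searched. The other motifs were TGACGTCA (1.85% of promoters), the ER stress element (0.0769%), CACGTG (7.26%), GCGTG (36.5%), TGACNNNGC, the antioxidant response element core (13.3%) and TATAAA (11.5%). TGACNNNGC matched NPHS1 only past its start, at 15 to 23 and 35 to 43, and the DMGDH promoter held none of the 9. The letters describe these windows only; no binding was measured.

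LAMP3 (gene ID 27074, chromosome 3) had the largest difference of all 17702 genes tested. It was counted at 47, 82 and 56 reads in the vehicle libraries, 54, 46 and 57 under enzalutamide, 75, 76 and 51 under the ligand, and 2359, 1894 and 1571 with the degrader. In CPM these were 0.636, 1.31 and 0.935 with vehicle, 0.914, 0.756 and 0.817 under enzalutamide, 1.07, 1.07 and 0.913 under the ligand, and 30.6, 25.1 and 26.7 with the degrader. The vehicle, enzalutamide and ligand ranges overlapped, and the lowest degrader library stood 19.2 times above the highest of the 9 other libraries. The log2 fold change of degrader against vehicle was 4.86 (SE 0.16, 95% confidence interval 4.52 to 5.19), with means of 0.959 ± 0.335 and 27.5 ± 2.84 CPM (SD, n = 3). The vehicle libraries varied by 35.0% of their mean, where counting error alone gives 12.7%.

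NPHS1 (gene ID 4868, chromosome 19) came after LAMP3 in size of difference among the 5 genes, and its ligand libraries all lay above its vehicle libraries. Its counts were 92, 55 and 70 reads with vehicle, 117, 85 and 78 under enzalutamide, 119, 133 and 141 under the ligand, and 854, 691 and 530 with the degrader. These correspond to 1.25, 0.876 and 1.17 CPM with vehicle, 1.98, 1.40 and 1.12 under enzalutamide, 1.70, 1.87 and 2.52 under the ligand, and 11.1, 9.16 and 9.01 with the degrader. The ligand group did not overlap vehicle but overlapped enzalutamide, and the lowest degrader library was 3.57 times the highest of the others, the narrowest such gap of the 5 genes. How many of all genes separate ligand from vehicle libraries was not counted. The log2 fold change of degrader against vehicle was 3.15 (SE 0.19, interval 2.74 to 3.55), from 1.10 ± 0.195 to 9.76 ± 1.16 CPM. The annotated span of NPHS1 overlaps that of KIRREL2, a gene for a nephrin-like adhesion protein. The mean level of KIRREL2 was 0.380 CPM with vehicle and 0.583 with the degrader.

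CALCA (gene ID 796, chromosome 11) was the most abundant of the 5 with vehicle. Its counts were 223, 218 and 176 reads with vehicle, 194, 200 and 280 under enzalutamide, 306, 267 and 216 under the ligand, and 2091, 1812 and 1423 with the degrader. In CPM the vehicle libraries were at 3.02, 3.47 and 2.94, enzalutamide at 3.28, 3.29 and 4.01, the ligand at 4.36, 3.75 and 3.87, and the degrader at 27.2, 24.0 and 24.2. The ligand libraries lay above all vehicle libraries, a separation not counted over all genes, and within reach of the enzalutamide ones. The lowest degrader library was 5.51 times the highest of the others. The log2 fold change of degrader against vehicle was 3.0 (SE 0.10, interval 2.79 to 3.21), from 3.14 ± 0.288 to 25.1 ± 1.76 CPM. CALCA counts do not separate calcitonin from CGRP transcripts, and CALCB, its close paralog nearby, could share reads with it.

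SH3BGR (gene ID 6450, chromosome 21) varied most between replicates of the 5 genes under enzalutamide, the ligand and the degrader, though LAMP3 varied more with vehicle. Its counts were 98, 89 and 125 reads with vehicle, 118, 65 and 120 under enzalutamide, 181, 58 and 70 under the ligand, and 1063, 775 and 742 with the degrader. In CPM they were 1.33, 1.42 and 2.09 with vehicle, 2.0, 1.07 and 1.72 under enzalutamide, 2.58, 0.815 and 1.25 under the ligand, and 13.8, 10.3 and 12.6 with the degrader. The 3 groups other than the degrader overlapped, the first ligand library was the highest of the 9, and the lowest degrader library was 3.98 times that library. The log2 fold change of degrader against vehicle was 2.93 (SE 0.35, interval 2.17 to 3.70), from 1.61 ± 0.415 to 12.2 ± 1.80 CPM. Against the ligand it was 2.97, and 3.58 without ligand replicate 1.

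DMGDH (gene ID 29958, chromosome 5) was the most even of the 5 across the degrader libraries; CALCA was more even in the other 3 groups. Its counts were 66, 72 and 62 reads with vehicle, 49, 52 and 78 under enzalutamide, 73, 61 and 56 under the ligand, and 527, 529 and 387 with the degrader. Its CPM values were 0.894, 1.15 and 1.04 with vehicle, 0.829, 0.855 and 1.12 under enzalutamide, 1.04, 0.857 and 1.00 under the ligand, and 6.85, 7.02 and 6.58 with the degrader. Again the first 3 groups overlapped, and the lowest degrader library was 5.74 times the highest of the others. The log2 fold change of degrader against vehicle was 2.74 (SE 0.14, interval 2.44 to 3.03), from 1.03 ± 0.127 to 6.81 ± 0.218 CPM. The degrader libraries varied by 3.20% of their mean, below the 4.56% that counting error gives.

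**Figure D1:**
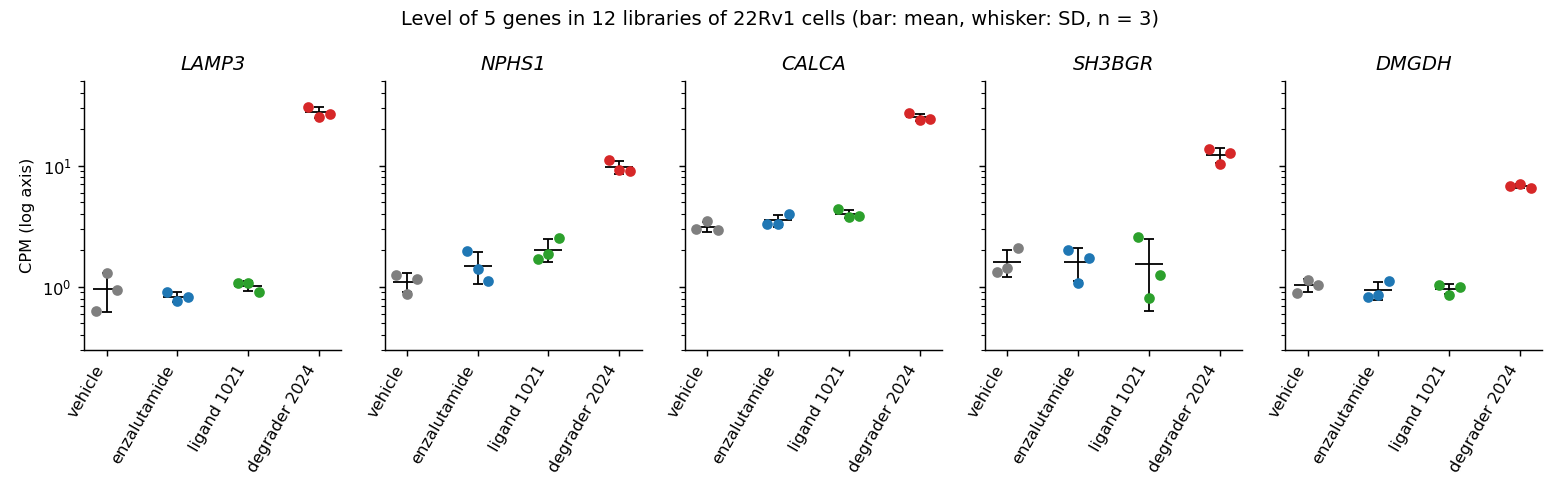
Level of each of the 5 genes in every library, in CPM on a log axis, by group, with a point for each library, a bar for the group mean and whiskers for the SD (n = 3). The 3 degrader libraries lie above all 9 others for each gene, and the other 3 groups overlap except for the NPHS1 and CALCA ligand libraries against vehicle. Neither of those 2 differences passed the edgeR test, and the share of all genes that separate ligand from vehicle was not counted.

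Compared per length, in the authors' TPM, which scales reads to transcript length and depth, the order of the genes was not that of their differences. With vehicle, CALCA was at 7.12 ± 0.598 TPM, SH3BGR at 2.87 ± 0.783, DMGDH at 0.681 ± 0.0923, LAMP3 at 0.609 ± 0.225 and NPHS1 at 0.444 ± 0.0721. DMGDH and LAMP3, and LAMP3 and NPHS1, overlapped between libraries. With the degrader, CALCA reached 58.4 ± 2.14 TPM, SH3BGR 21.4 ± 2.66, LAMP3 17.9 ± 1.45, DMGDH 4.68 ± 0.194 and NPHS1 4.04 ± 0.393, and SH3BGR and LAMP3 overlapped. Among all listed genes, mean TPM placed LAMP3 at percentile 17.0 with vehicle and 61.7 with the degrader, and CALCA at 45.7 and 85.9. NPHS1 moved from percentile 14 to 36.5, SH3BGR from 33.3 to 65.9 and DMGDH from 18.1 to 38.5. NPHS1 and DMGDH were thus below the median listed gene also with the degrader.

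The degrader differed from all 3 other groups by similar amounts for LAMP3, CALCA, SH3BGR and DMGDH. Its log2 fold change against enzalutamide was 5.05 for LAMP3, 2.71 for NPHS1, 2.83 for CALCA, 2.94 for SH3BGR and 2.86 for DMGDH. Against the ligand it was 4.75, 2.28, 2.65, 2.97 and 2.82 in the same order. These contrasts share the degrader libraries. For scale, 32.7% of genes passed the edgeR test of degrader against vehicle (Benjamini-Hochberg adjusted p under 0.05), 16.4% higher and 16.4% lower, and 32.3% and 28.5% passed against enzalutamide and ligand. The sum of the enzalutamide and ligand differences from vehicle was 1.31 for NPHS1, set beside its 3.15 with the degrader, and 0.52 for CALCA, beside 3.0. That sum was -0.09 for LAMP3, -0.04 for SH3BGR and -0.20 for DMGDH, beside 4.86, 2.93 and 2.74.

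By size of difference from vehicle, LAMP3 ranked 1, NPHS1 6, CALCA 8, SH3BGR 9 and DMGDH 10 among the 17702 genes. The genes ranked between them were all below 5 CPM in the degrader group; among those with at least 5 CPM there and no overlap between replicates, the 5 were the first 5. The innermost member, DMGDH (log2 fold change 2.74), was followed by HMGCS1, an enzyme of sterol synthesis, at 2.65, by INSIG1, a sterol-sensing regulator, at 2.50, and by the xenobiotic-metabolising enzyme gene CYP1A1 at 2.47. HMGCS1 started from 110.1 CPM with vehicle, where the 5 genes started from 0.959 to 3.14.

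The comparisons that did not enter the choice were enzalutamide against vehicle, ligand against vehicle and ligand against enzalutamide, although the first and second share the vehicle libraries that did. None of the 5 genes passed the edgeR quasi-likelihood test at adjusted p under 0.05 in any of these, where 1.44%, 0.237% and 2.04% of all genes did. At an unadjusted p under 0.05 the counts were 0, 2 and 1 of 5, and DESeq2 called 0, 1 and 0. The share of all genes under that unadjusted p was not computed.

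With enzalutamide, LAMP3 differed from vehicle by -0.19 on the log2 scale (interval -0.63 to 0.25, edgeR adjusted p = 0.808) and NPHS1 by 0.43 (-0.02 to 0.89, 0.525). CALCA differed by 0.17 (-0.06 to 0.40, 0.653) and DMGDH by -0.12 (-0.45 to 0.21, 0.844). The interval of SH3BGR was the widest, -0.86 to 0.85 around 0.00 (adjusted p = 0.998). Changes of the size seen with the degrader lie outside all 5 intervals.

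With the ligand, LAMP3 differed from vehicle by 0.11 (-0.31 to 0.53, edgeR adjusted p = 0.969), SH3BGR by -0.04 (-0.89 to 0.82, 0.995) and DMGDH by -0.08 (-0.41 to 0.25, 0.969). CALCA, the calcitonin and CGRP gene, was at 3.99 ± 0.324 CPM under the ligand against 3.14 ± 0.288 with vehicle, a difference of 0.35 (0.12 to 0.57) with an unadjusted p of 0.00489 and an adjusted p of 0.365. NPHS1 was at 2.03 ± 0.436 CPM against 1.10 ± 0.195, a difference of 0.87 (SE 0.21, 0.43 to 1.31), higher in 3 of 3 ligand libraries. Its edgeR p was 0.000628 before and 0.128 after adjustment, so the nephrin transcript did not pass. DESeq2 on the same counts called it with an adjusted p of 0.00416, and the authors' deposited table lists a fold of 1.84 with an adjusted p of 0.00378. With the replicate number as a block the edgeR adjusted p was 0.0195. Leaving out 1 library at a time gave 0.0575 (without enzalutamide replicate 1) to 0.511 (without vehicle replicate 2).

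Between ligand and enzalutamide, the difference was 0.30 for LAMP3 (edgeR adjusted p = 0.795), 0.44 for NPHS1 (unadjusted p = 0.0437, adjusted 0.515), 0.18 for CALCA (0.731), -0.03 for SH3BGR (0.997) and 0.04 for DMGDH (0.989).

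**Figure D2:**
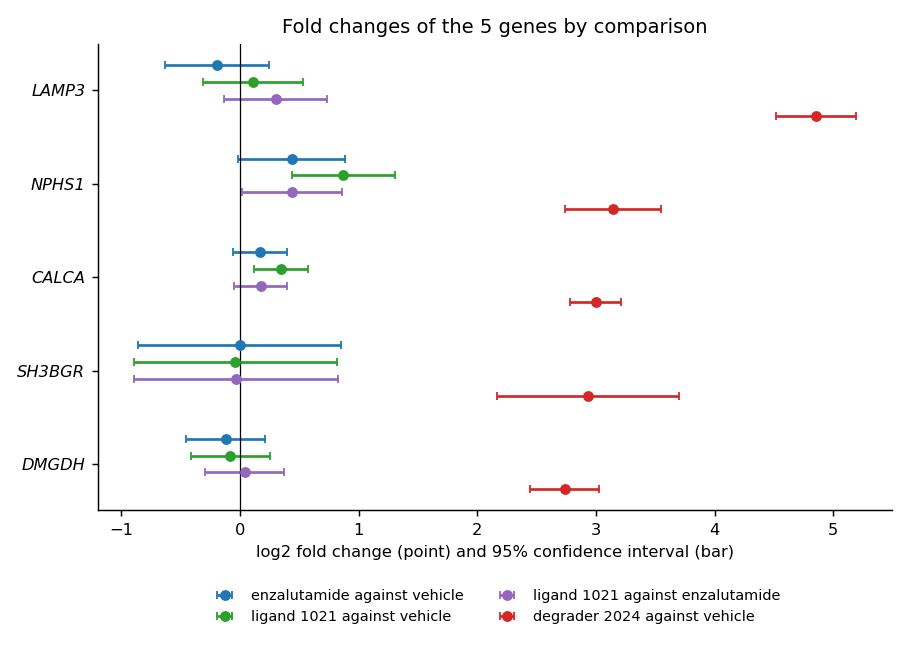
Log2 fold change of each of the 5 genes in 4 comparisons (each compound against vehicle, and ligand against enzalutamide), with 95% confidence intervals from edgeR over 12 libraries. Without the degrader the values run from -0.19 to 0.87, and with the degrader, the contrast that chose the genes, from 2.74 to 4.86.

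SH3BGR overlaps WRB-SH3BGR, a read-through locus that joins the neighbouring gene to it, and the table counts them apart. WRB-SH3BGR was at 4.21, 3.58 and 2.27 CPM with vehicle, 3.01, 5.16 and 3.60 under enzalutamide, 2.69, 3.61 and 4.12 under the ligand, and 3.10, 7.02 and 4.86 with the degrader. In each of the 4 groups, the library with the most SH3BGR had the least WRB-SH3BGR. By edgeR, WRB-SH3BGR differed by 0.57 between degrader and vehicle (SE 0.32, adjusted p = 0.210).

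Added together, the 2 loci gave 5.54, 5.00 and 4.36 CPM with vehicle, 5.01, 6.23 and 5.32 under enzalutamide, 5.27, 4.43 and 5.37 under the ligand, and 16.9, 17.3 and 17.5 with the degrader. The sum varied less between replicates: by 11.9%, 11.5%, 10.3% and 1.69% of the mean in these groups, against 25.8%, 29.9%, 59.3% and 14.7% for SH3BGR alone. The difference of degrader from vehicle also became smaller, 1.79 for the sum (SE 0.10, interval 1.57 to 2.01) against 2.93 for SH3BGR alone, and the sum ranked 42 among the genes tested. SH3BGR took 24.0, 28.3 and 47.9% of the sum with vehicle, 39.9, 17.2 and 32.3% under enzalutamide, 48.9, 18.4 and 23.3% under the ligand, and 81.6, 59.4 and 72.2% with the degrader. The share was higher in each degrader library than in any other library. The sum differed by 0.15 between enzalutamide and vehicle (edgeR adjusted p = 0.694) and by 0.01 between ligand and vehicle (0.995). How reads in the shared exons were divided between both loci is not given in the sources used here, so the SH3BGR level on its own is uncertain.

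**Figure D3:**
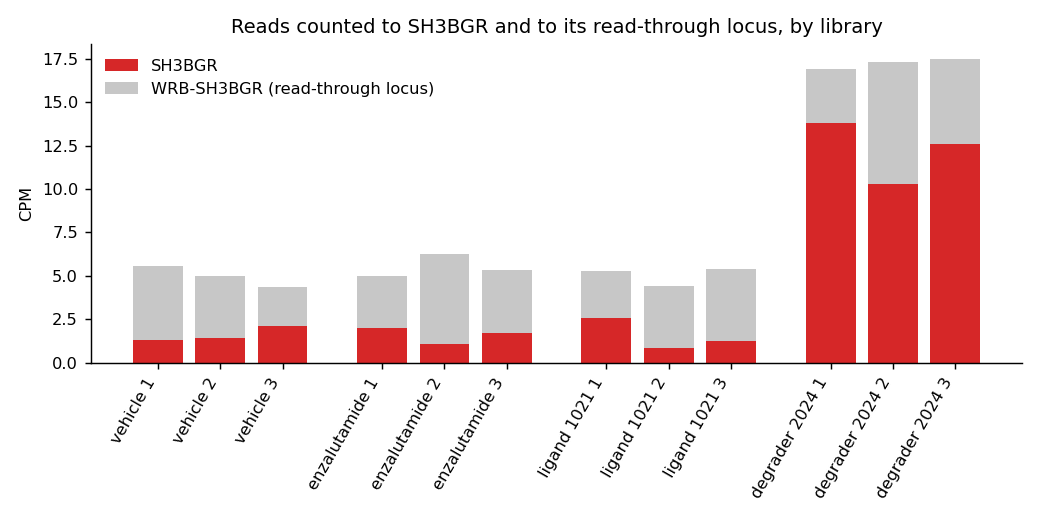
Level in CPM of SH3BGR and of its read-through locus WRB-SH3BGR in each of the 12 libraries, stacked so that the bar height is their sum. The degrader sums lie between 16.9 and 17.5 CPM and the other 9 between 4.36 and 6.23.

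Genes that work with each of the 5 were described from lists, with degrader against vehicle as the comparison and 32.7% of all genes called in it. Around LAMP3, 11 genes of the LAMP family and lysosomal membrane were tested, of which 8 rose and 1 fell, with a median log2 fold change of 0.20 (0.01 over all genes). NPC1, the lysosomal cholesterol exporter, rose by 0.64 (SE 0.06), SLC17A5, the sialic acid exporter, by 0.46 (SE 0.05), CTNS, the cystine exporter, by 0.45 (SE 0.06) and LAMP2, an abundant lysosomal membrane protein, by 0.39 (SE 0.06), where LAMP3 stood at 4.86. Its closest relatives, LAMP1 (0.13, edgeR adjusted p = 0.044) and the macrophage-associated CD68 (-0.31, 0.042), passed the test narrowly. LAMP1 was not called with the size factors of DESeq2 in edgeR (adjusted p = 0.0558) or without the filter on low counts (0.0570). It also lost its call, at adjusted p 0.0507 to 0.189, without any 1 of 8 libraries: vehicle replicates 1, 2 and 3, enzalutamide 2 and 3, ligand 1, and degrader 1 and 2. CD68 lost it at 0.0502 to 0.209 without any 1 of 6: vehicle 1, 2 and 3, enzalutamide 2, ligand 1 and degrader 2. Of the others counted as risen, the channel gene MCOLN1 (0.20, 0.0460) lost its call at 0.0502 to 0.242 without vehicle 2 or 3, enzalutamide 2 or 3, ligand 1 or degrader 1. It also lost it with the size factors of DESeq2 (0.0522), without the filter (0.0577) and with only the groups compared (0.0585). The receptor gene SCARB2 (0.19, 0.0149) lost it without vehicle 1 (0.0665) or degrader 3 (0.0877). Both were named after their values were seen.

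Of 14 genes of the PERK-ATF4 arm, the pathway known to induce LAMP3, 12 rose with the degrader and none fell (median 0.93). CHAC1, a glutathione-degrading enzyme, rose by 2.35 (SE 0.14) from 3.21 ± 0.154 to 16.4 ± 0.620 CPM. DDIT3, the transcription factor CHOP, rose by 1.64, SLC7A11, the cystine transporter, by 1.59 and SESN2, a stress-induced regulator, by 1.54. DDIT4 (0.61, edgeR adjusted p = 0.258) and VLDLR (0.33, 0.0605) did not pass. An earlier reading of these data had shown this pathway higher with the degrader, so the count is no independent evidence of its direction.

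Around NPHS1, 19 partners of nephrin and slit diaphragm genes were tested, and 3 rose and 2 fell (median 0.11). PLCE1, a phospholipase, rose by 1.29 (SE 0.29) at a low level of 0.266 to 0.652 CPM, FYN, the kinase that phosphorylates nephrin, by 0.80 (SE 0.12), and PODXL, the podocyte surface protein podocalyxin, by 0.22 (SE 0.04). The actin cross-linker ACTN4 (-0.17, edgeR adjusted p = 0.0266) and the scaffold IQGAP1 (-0.15, 0.0431) were called lower. ACTN4 lost its call at 0.0563 to 0.105 without vehicle replicate 1, 2 or 3 or degrader replicate 2 or 3. IQGAP1 lost it at 0.0594 to 0.173 without vehicle 2 or 3, enzalutamide 2 or 3, or degrader 1 or 2. With only the groups compared, IQGAP1 had an edgeR adjusted p of 0.0587. The share called, 26.3%, was near the 32.7% of all genes.

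Around CALCA, 12 genes of the calcitonin family, its receptors and peptide processing were tested, and 2 rose and 2 fell (median -0.13), again a share near that of all genes, 33.3%. ADM2, the calcitonin-family peptide intermedin, rose by 1.28 (SE 0.07) from 49.7 ± 1.80 to 120.3 ± 8.88 CPM. CALCB, which encodes the second CGRP, rose by 0.47 (SE 0.08) from 9.30 ± 0.764 to 12.9 ± 0.836 CPM, beside 3.0 for CALCA. Adrenomedullin, ADM, was at -0.16 (edgeR adjusted p = 0.595), and the receptor-modifying proteins RAMP1 (0.02, 0.922) and RAMP2 (-0.18, 0.583) did not pass either. CPE, the carboxypeptidase that trims peptide hormones, fell by 0.21 (SE 0.05). CALCRL, the CGRP receptor, had -0.71 (adjusted p = 0.0442) at a level under 1 CPM. It lost that call, at 0.0508 to 0.136, without any vehicle or enzalutamide library, ligand replicate 3, or degrader replicate 2 or 3. CALCRL was also not called by DESeq2 (adjusted p = 0.0933) or by edgeR with only the groups compared (0.0669). IAPP, CALCR and RAMP3 were not in the table.

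The 3 relatives of SH3BGR had small values. SH3BGRL was at -0.12 (edgeR adjusted p = 0.348) and SH3BGRL2 at 0.13 (0.111), and neither passed. SH3BGRL3 fell by 0.19 (SE 0.05, adjusted p = 0.0090), a call lost at 0.0571 without vehicle replicate 1.

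Around DMGDH, 25 genes of choline oxidation and folate one-carbon metabolism were tested, and 7 rose and 10 fell (median -0.15), 68% called in all. The enzymes upstream of DMGDH, CHDH (-0.20, SE 0.04) and ALDH7A1 (-0.28, SE 0.05), which make betaine from choline, both fell. ETFB, a subunit of the electron acceptor that takes electrons from DMGDH, fell by 0.31 (SE 0.08). SARDH, which acts on the sarcosine that DMGDH makes, was at -0.15 (edgeR adjusted p = 0.448). CHDH, ALDH7A1 and SARDH are named for their place in the route, chosen after their values were seen. In the folate part, ALDH1L2, the mitochondrial formyl-folate dehydrogenase, rose by 1.32 (SE 0.05) from 125.7 ± 7.41 to 313.3 ± 8.74 CPM, and SHMT2, the mitochondrial serine hydroxymethyltransferase, by 0.47. ALDH1L1, the cytosolic counterpart of ALDH1L2, rose by 1.70 (SE 0.40) at 0.146 to 0.478 CPM. The folate carrier SLC19A1 fell by 0.38, the cytosolic enzyme MTHFD1 by 0.36 and cytosolic SHMT1 by 0.33. BHMT, which makes dimethylglycine, and BHMT2 were not in the table.

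With enzalutamide or the ligand, edgeR called none of the 84 genes in these 6 lists, where it called 1.44% and 0.237% of all genes. Without adjustment, 12 had a p under 0.05 in each comparison, and DESeq2 called 0 under enzalutamide and 1, GNMT, under the ligand. The share of all genes with an unadjusted p under 0.05 was not computed, so the 12 have no share to be read against.

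**Figure D4:**
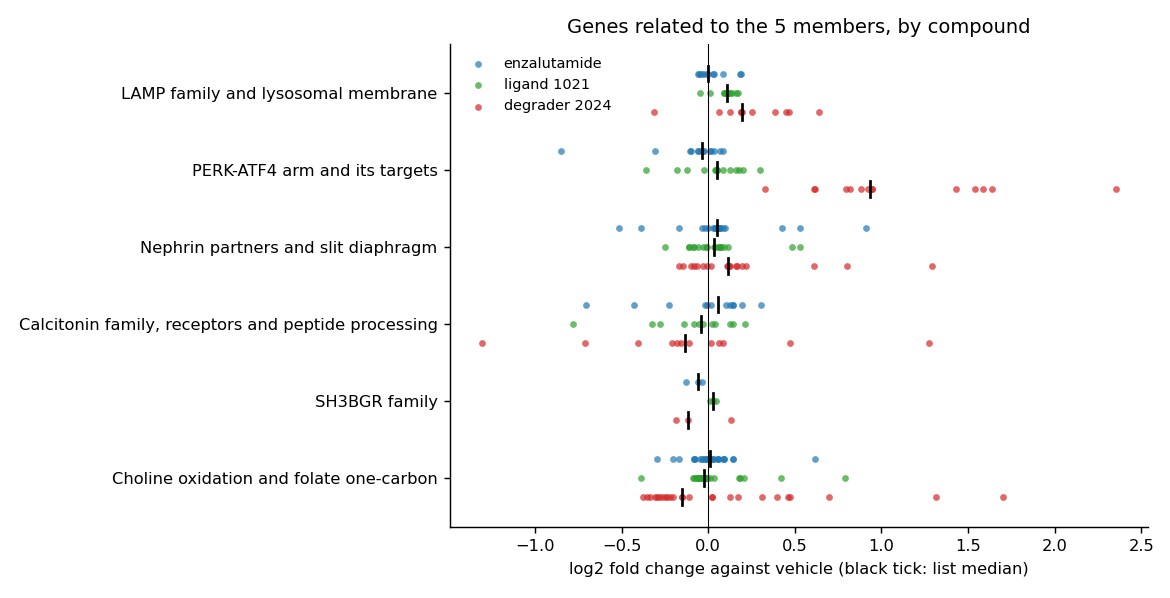
Log2 fold change against vehicle for the genes of the 6 lists related to LAMP3, NPHS1, CALCA, SH3BGR and DMGDH, with a point for each gene, a colour for each compound and a black tick for the list median. The degrader medians run from -0.15 to 0.93, and no listed gene reaches the 2.74 of DMGDH, the smallest of the 5. The 5 were chosen for the size of this same difference, so the gap is a description of the choice.

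The differences were also set beside those of genome neighbours, the 3 nearest measured genes on each side of each of the 5 genes. Of these 30 neighbours, 6 rose and 3 fell with the degrader, 30% against 32.7% of all genes, with a median of 0.13. KLHL24, the third gene beyond LAMP3 and an adaptor of a ubiquitin ligase, rose by 0.83 (SE 0.10), and JMY, the actin regulator next to DMGDH, by 0.43 (SE 0.08). CALCB, next to CALCA, rose by 0.47 and ARHGAP33, next to NPHS1, by 0.26 (SE 0.06). PDE3B, a phosphodiesterase near CALCA, fell by 0.22 (SE 0.06). MCCC1, on the other side of LAMP3, was at 0.10 (edgeR adjusted p = 0.078), ARSB, next to DMGDH, at -0.13 (0.298), and CYP2R1, next to CALCA, at 0.13 (0.313).

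B3GNT5, the gene next to LAMP3, had 1.15 (SE 0.39, edgeR adjusted p = 0.0321) at 0.176 to 0.394 CPM, and lost its call, at 0.0735 to 0.128, without vehicle replicate 1 or 3 or degrader replicate 1 or 3. DSCAM, beyond SH3BGR, had 0.48 (adjusted p = 0.0353), lost at 0.0736 to 0.174 without vehicle 1 or 2 or degrader 2 or 3. With only the groups compared, DSCAM had an edgeR adjusted p of 0.0519. APLP1, near NPHS1, had -0.19 (0.0226), lost at 0.0508 to 0.117 without vehicle 1 or 2 or degrader 3. PSMA1, near CALCA, had -0.13 (0.033), lost at 0.0643 to 0.106 without any vehicle library or degrader 1 or 2. With enzalutamide 1 neighbour was called by edgeR, B3GALT5 next to SH3BGR (0.64). Its call was lost at 0.0622 to 0.176 without vehicle 1 or 3, any enzalutamide library, ligand 1 or degrader 2. The B3GALT5 call was also lost with only the groups compared (0.0510). With the ligand edgeR called 0 neighbours, where 3 had a p under 0.05 before adjustment and DESeq2 called 0. Over all genes edgeR called 1.44% with enzalutamide and 0.237% with the ligand, and the share before adjustment was not computed.

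**Figure D5:**
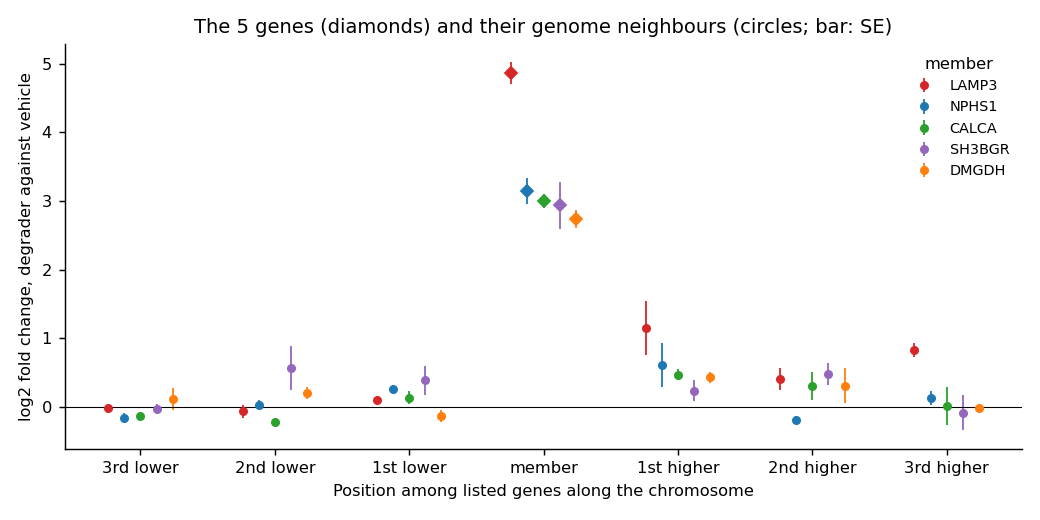
Log2 fold change of degrader against vehicle for LAMP3, NPHS1, CALCA, SH3BGR and DMGDH and for the 3 nearest measured genes on each side, by position in genome order, with bars for the SE. Each of the 5 genes stands above its neighbours, the highest of which, B3GNT5, has 1.15. The 5 were chosen for the size of this same difference, so their place above the neighbours follows from the choice. SH3BGR is shown alone, and its sum with WRB-SH3BGR had 1.79.

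The genes whose pattern was most like each of the 5 were ranked by Pearson r of log2 CPM over the 12 libraries, among 14357 genes with a mean of at least 1 CPM. The degrader libraries lie apart for all 5 genes, and the points share depth and group, so r is given as a description. LAMP3 was closest to GARS1, the glycyl-tRNA synthetase (0.995), HERPUD1, an endoplasmic reticulum stress protein (0.994), and DMGDH (0.992). DMGDH was closest to GARS1 (0.995), MTHFD2, a mitochondrial folate enzyme (0.993), and LAMP3. GARS1 was at 211.6 ± 4.26 CPM with vehicle and 321.9 ± 3.38 with the degrader, a far smaller step at a far higher level. CALCA was closest to SLC6A9, the glycine transporter (0.995), TLCD2 (0.993) and BEX4 (0.993).

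NPHS1 was closest to FLVCR2 (0.983), CYP1A2 (0.982) and HRK (0.982). CYP1A2, a xenobiotic-metabolising enzyme, was at 3.03 ± 0.546 CPM with vehicle, 4.08 ± 0.835 under enzalutamide, 4.87 ± 0.271 under the ligand and 14.2 ± 1.02 with the degrader, the same order of group means as NPHS1. HRK, a pro-apoptotic protein gene, was at 1.17 ± 0.0433, 1.29 ± 0.194, 1.75 ± 0.0942 and 3.92 ± 0.0760 CPM in that order. SH3BGR was closest to BCL2L2 (0.983), UNC5B (0.970) and CALCOCO2 (0.969). Among the 5 genes themselves r ran from 0.891 for NPHS1 and SH3BGR to 0.992 for LAMP3 and DMGDH.

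The 5 genes are known from dendritic cells, podocytes, C cells, muscle and liver, and markers of those cells were read in the same libraries. Of 10 dendritic cell markers 2 were in the table, and their summed level was 17.3 to 27.2 CPM with vehicle and 12.1 to 17.8 with the degrader. Of 10 podocyte markers 8 were in the table, at 170 to 175.9 CPM and 149.3 to 155.5. For C cell and neuroendocrine markers it was 6 of 10, at 340.4 to 375.3 and 296.1 to 325.6 CPM. For striated muscle it was 4 of 14, at 47.4 to 60.6 and 41.0 to 44.8 CPM, and for hepatocytes 6 of 10, at 228.5 to 241 and 169.8 to 197.6 CPM. Each of the summed marker levels except that of dendritic cells was lower in all 3 degrader libraries than in all 3 vehicle libraries, while LAMP3, NPHS1, CALCA, SH3BGR and DMGDH were higher. Markers such as CCR7 and CD86 of dendritic cells, INSM1 of neuroendocrine cells, ACTA1, MYH7 and TTN of muscle, and APOA1 and APOB of hepatocytes were not in the table, which lists only genes with reads in every library. Other markers from the same lists were present. With vehicle, ALB of hepatocytes was at 223.9 CPM, SYP of neuroendocrine cells at 75.5, PODXL of podocytes at 47.0 and MB of muscle at 41.1. Of the 13 luminal markers 8 fell with the degrader, where 16.4% of all genes fell, and none rose. KLK2 (-1.09) and KLK3 (-0.92), the kallikrein genes of prostate secretion, led them. By edgeR 5 of the 13 fell with enzalutamide and 1, KLK2, with the ligand, where 1.44% and 0.237% of all genes were called. STEAP2, called with enzalutamide (-0.59), did not pass with the degrader (-0.23, edgeR adjusted p = 0.109). With enzalutamide, the STEAP2 call was lost without enzalutamide replicate 1 (0.0744) and the KLK3 call without enzalutamide replicate 2 (0.0644). SLC45A3 was at -1.12 with enzalutamide and -0.41 with the degrader, and STEAP1 at -0.68 and -0.49. The KLK2 call with the ligand was lost without any 1 of 8 libraries, and with only the groups compared (edgeR adjusted p = 0.0678). The part of these shifts in the levels of the 5 genes was not tested.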

How the data were processed

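Polyadenylated RNA of 12 libraries (4 groups of 3) was sequenced. Per the submitters' processing notes, HISAT2, StringTie and GRCh37 were used; versions are not given. The deposited table gives 18668 genes, with 1 read count and 1 TPM column per library (per the file headers). The read counts held whole numbers that the authors left unnormalized, and the TPM values had been scaled to transcript length and depth by the authors. The authors also deposited a score, a signed linear fold change against vehicle, and a p-value adjusted over genes, from a test not named there.

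The members and gene lists were chosen with earlier results of these data known. Genes kept by filterByExpr (minimum count 10, minimum total 15; 17702 kept, 966 not tested) were scaled by TMM (factors 0.987 to 1.016) and fitted to all 12 libraries with edgeR's quasi-likelihood model (robust, group as the term, 8 residual degrees of freedom). Benjamini-Hochberg adjusted p under 0.05 over all genes tested made a call. Totals were 55.5 to 77.2 M reads, so counting error is small except for low genes. The fit was also run on counts simulated with its own estimates of spread. Known changes were put only in better-counted genes there, so that run does not show how low genes fare. CPM are TMM-scaled; likeness used log2 CPM with a prior count of 2. Promoters came from RefSeq (GRCh38.p14). Genes named were the 5, their families, up to 4 called genes per list and direction with the largest differences, the 3 nearest neighbours per side, the 3 most alike genes and the 3 next in rank; some genes this rule names are not reported here. Alternatives were DESeq2, its size factors in edgeR, no filter, a replicate block, only the groups compared, each library left out, and Spearman's rho for likeness. Adding WRB-SH3BGR to SH3BGR was chosen after seeing the data. The tools were edgeR 4.0.16 with limma 3.58.1, and DESeq2 1.42.0, in R 4.3.3.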

Additional observations from a re-analysis of the deposited data

How the results depend on the processing

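No degrader difference of the 5 genes changed sign under the alternatives run. Some differences without the degrader did, none of them past the edgeR test. With 1 library left out, the log2 difference of enzalutamide from vehicle ran from -0.44 to 0.10 for LAMP3 (above 0 without vehicle replicate 2) and from -0.19 to 0.22 for SH3BGR (above 0 without vehicle 3 or enzalutamide 2). That of the ligand from vehicle ran from -0.14 to 0.41 for LAMP3 (below 0 without vehicle 1), from -0.65 to 0.29 for SH3BGR (above 0 without vehicle 3, ligand 2 or ligand 3) and from -0.18 to 0.0131 for DMGDH (above 0 without vehicle 2 or ligand 2). Between ligand and enzalutamide it ran from -0.65 to 0.29 for SH3BGR (above 0 without enzalutamide 1 or 3, or ligand 2 or 3) and from -0.0334 to 0.20 for DMGDH (below 0 without enzalutamide 1 or 2, or ligand 1). Summed with WRB-SH3BGR, SH3BGR had 0.15 under enzalutamide and 0.0108 under the ligand.

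Of the 5 genes, none was called for enzalutamide or between ligand and enzalutamide under any alternative; NPHS1 was called for the ligand by DESeq2 and with the replicate block (1 of 5 genes each). DESeq2 called 398 genes for enzalutamide and 124 for the ligand against vehicle, where edgeR called 255 and 42, and 1 listed gene for the ligand. Fitting only the groups compared called 25 genes for the ligand and 0 neighbours for enzalutamide.

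The libraries share only a replicate number in the labels. For each gene the group mean was subtracted from log2 CPM, and libraries of different groups were correlated by what remained. These correlations of same-numbered libraries ran from -0.032 to 0.207, not all over 0.1, and do not measure how alike the whole profiles were. As a hint from the data, a library correlated best with its own number in 14 of 18 comparisons: in all 6 for replicate 1, all 6 for replicate 3 and 2 of 6 for replicate 2. With that number as a replicate block, 553 genes were called for enzalutamide, 191 for the ligand and 613 between them (361 without the block), and 2 listed genes each for enzalutamide and the ligand.

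Leaving out 1 library at a time gave 21 to 77 genes called for the ligand against vehicle (fewest without vehicle replicate 3, most without ligand replicate 3) and 229 to 355 between ligand and enzalutamide (fewest without enzalutamide replicate 3). It gave 0 to 1 neighbours called for enzalutamide and 0 to 2 listed genes for the ligand. The median log2 fold change of the 5 genes ran from 2.94 to 3.16 for degrader against vehicle, 2.78 to 3.0 against enzalutamide and 2.65 to 2.88 against the ligand. With WRB-SH3BGR added, an alternative chosen after seeing the data, the last median was 2.65 in place of 2.82, and SH3BGR had 1.79, 1.64 and 1.78 against vehicle, enzalutamide and ligand. By Spearman's rho, 2 of the 15 most alike genes were shared. The cause of these shifts was not tested. Low counts, 46 to 82 reads for LAMP3 outside the degrader group, limit what could be detected there.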

Other observations

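The pattern most like SH3BGR depended on whether its read-through locus was counted with it, a comparison chosen after seeing the data. For the sum of SH3BGR and WRB-SH3BGR the highest Pearson r over the 12 libraries was with MIA2 (0.989), CCPG1 (0.985) and FAM219B (0.984), while BCL2L2 stood at 0.953, UNC5B at 0.949 and CALCOCO2 at 0.960. The sum had an r of 0.979 with CALCA, 0.976 with DMGDH, 0.968 with LAMP3 and 0.935 with NPHS1.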
